A study of Mus musculus with 20 samples.

Results

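The genes examined here were Endou, Cd79b, Emilin1, Cabp1, Igsf23, Scn2b, Dnajc6, Tmem108, Qrfp and Lrp5, 10 of the 17101 genes measured by RNA-Seq. They had been picked for large rises in Dnmt3a-KO CD4+ or CD8+ T cells and were not regarded as T cell genes. The second point was a label of the choice and was not tested, and several had counts in WT T cells as well. Because of this choice, their KO against WT values in these subsets are given as a description, without a test. No numeric limit was part of the choice. The 20 libraries came from donor T cells sorted from the spleens of transplant recipients on day +10, with 4 libraries in each of 5 groups, which were CD4+ and CD8+ cells of each genotype and KO CD4+CD8+ (DP) cells. KO donors carried loxP-flanked Dnmt3a and a Cre recombinase under the Cd4 promoter (CD4-Cre 2loxP), so the gene was removed in T cells, and WT donors were littermates. Donors were B6 mice and recipients F1 mice, aged 6-12 and 8-12 weeks by the labels (the methods of the study give donors a narrower range), and every group, WT included, had thus gone through allogeneic transplantation. KO libraries carried the replicate numbers 1 to 4 and WT libraries the numbers 2, 3, 5 and 6. No DP cells of WT donors were analysed here.

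DNMT3a is a de novo DNA methyltransferase that adds methyl groups to cytosines of CpG dinucleotides. In T cells it acts during activation and differentiation, and methylation of promoters and enhancers is one of the means by which genes of other lineages are kept silent. The 10 genes were taken as genes of other settings by roles known for them. Cd79b encodes a signaling chain of the B cell receptor, and Lrp5 a Wnt coreceptor. Scn2b, Cabp1, Dnajc6 and Tmem108 encode proteins best known from neurons, Qrfp a hypothalamic neuropeptide, Emilin1 a glycoprotein of elastic fibers, Endou an endoribonuclease, and Igsf23 a member of the immunoglobulin superfamily.

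Because DNMT3a acts on CpG dinucleotides, promoter windows that span the range of CpG content among the genes are shown. Each holds 300 bases, 250 before and 50 after a start site, taken from RefSeq for GRCm38.p6, written 5′ to 3′ on the gene's strand with each CG in capitals. Windows were matched for 7 of the 10 genes (11 windows). Endou, Cd79b and Lrp5 had no entry. The window of Scn2b (chr9:45117626-45117925, plus strand) holds 2 CG, that of Emilin1 (chr5:30913536-30913835, plus strand) 6, that of Qrfp (chr2:31810531-31810830, minus strand) 10, the upstream window of Cabp1 (chr5:115194332-115194631, minus strand) 22 and the upstream window of Tmem108 (chr9:103761788-103762087, minus strand) 39.
Scn2b: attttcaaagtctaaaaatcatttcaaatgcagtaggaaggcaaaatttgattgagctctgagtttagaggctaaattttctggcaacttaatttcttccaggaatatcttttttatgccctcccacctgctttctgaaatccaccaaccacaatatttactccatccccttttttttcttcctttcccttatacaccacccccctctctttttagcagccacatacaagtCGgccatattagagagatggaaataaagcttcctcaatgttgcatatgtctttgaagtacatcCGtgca
Emilin1: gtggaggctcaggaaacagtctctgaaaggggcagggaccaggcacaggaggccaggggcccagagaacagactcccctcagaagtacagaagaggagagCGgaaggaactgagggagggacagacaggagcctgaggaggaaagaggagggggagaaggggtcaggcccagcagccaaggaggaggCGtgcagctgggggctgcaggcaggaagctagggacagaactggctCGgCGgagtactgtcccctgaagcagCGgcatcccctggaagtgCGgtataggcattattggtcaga
Qrfp: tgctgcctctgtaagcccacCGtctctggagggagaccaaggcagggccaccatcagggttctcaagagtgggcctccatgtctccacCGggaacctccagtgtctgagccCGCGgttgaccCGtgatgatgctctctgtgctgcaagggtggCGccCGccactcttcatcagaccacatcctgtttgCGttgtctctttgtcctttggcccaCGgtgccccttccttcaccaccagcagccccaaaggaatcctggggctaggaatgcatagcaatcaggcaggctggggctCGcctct
Cabp1: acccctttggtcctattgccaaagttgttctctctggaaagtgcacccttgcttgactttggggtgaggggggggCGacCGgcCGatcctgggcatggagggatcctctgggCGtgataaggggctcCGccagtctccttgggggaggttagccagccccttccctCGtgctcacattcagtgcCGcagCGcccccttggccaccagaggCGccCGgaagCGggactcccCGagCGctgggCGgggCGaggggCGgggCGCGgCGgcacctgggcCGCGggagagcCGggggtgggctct
Tmem108: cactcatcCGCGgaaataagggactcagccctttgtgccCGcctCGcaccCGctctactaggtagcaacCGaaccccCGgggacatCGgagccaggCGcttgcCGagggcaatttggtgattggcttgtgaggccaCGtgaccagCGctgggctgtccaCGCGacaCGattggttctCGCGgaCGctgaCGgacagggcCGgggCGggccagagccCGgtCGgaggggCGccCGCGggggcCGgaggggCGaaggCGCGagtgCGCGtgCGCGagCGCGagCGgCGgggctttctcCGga
The motif CG, which reads the same on both strands, was present in 94.6% of all 32851 windows of this length. The 11 windows held between 2 and 39 CG with a median of 9, against a median of 7 and quartiles of 3 and 20 over all windows. No more CG than in Scn2b were found in 23.3% of all windows, and 4.45% of windows held as many as the upstream window of Tmem108. The genes thus include CpG-poor and CpG-rich starts. Their methylation was not analysed here.

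The targeted gene and the sorted subsets were checked first. Dnmt3a read between 650.4 and 2007 normalized counts in the 12 KO libraries and between 3542 and 5171 in the 8 WT libraries, with no overlap. Reads from the parts of a gene outside a deletion can still be counted. A normalized count is the number of reads on a gene divided by the size factor of its library, and between 37547651 and 46966318 reads fell on genes per library. Cd4, Cd8a and Cd8b1 followed the sorted subsets, and KO DP libraries carried both Cd4 (8758 to 15350) and Cd8a (41590 to 68520). KO CD4+ replicate 1 stood apart with 3771 normalized counts of Cd8a, against 78.3 to 227 in the other KO CD4+ libraries. KO DP replicate 3 stood apart with 11783 genes that had reads, against 13203 to 14198 in the other KO libraries and 14421 to 14677 in WT libraries. In bulk RNA, a greater share of cells with a transcript and more transcript per cell cannot be told apart.

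Among the receptor genes, Cd79b encodes Igβ, which pairs with Igα (Cd79a) to carry the signal of the B cell receptor. It lies on chr11:106311341-106314562. Its normalized counts were 1073, 878, 581 and 652 in KO CD4+ replicates 1 to 4, 2245, 2004, 1413 and 1713 in KO CD8+ libraries, and 1741, 1998, 2185 and 1588 in KO DP libraries. In WT cells they were 40.1, 82.6, 78.7 and 42.3 (CD4+) and 245, 190, 211 and 147 (CD8+), so every KO library lay above every WT library. KO exceeded WT by 3.72 ± 0.30 (SE, n = 4 per group) on the log2 scale in CD4+ cells and by 3.21 in CD8+ cells. These fold changes, like all others given, are differences of log2(normalized count + 1), which understates the change of genes with low counts.

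Other genes that define B cells were examined beside Cd79b. Cd79a, its partner, read 48.8 to 90.1 normalized counts in KO CD4+ cells and 1.94 to 13.4 in WT CD4+ cells, a difference of 3.47 ± 0.55 on the log2 scale (limma adjusted p = 0.0049). In CD8+ cells Cd79a read 12.3 to 35.0 (KO) and 9.88 to 21.1 (WT), and the difference of 0.93 did not pass the test (limma adjusted p = 0.185, mean counts 29.2 and 14.2). Ms4a1 (CD20) and Pax5, the transcription factor that sets B cell identity, were at 0 in every KO CD8+ and KO DP library. The summed level of the B cell markers in the table (6 of 8) ran from 829 to 1500 in KO CD4+, 270 to 552 in KO CD8+, 330 to 705 in KO DP, from 1180 to 1640 over WT CD4+ and from 263 to 324 over WT CD8+ libraries. Cd22 made up between 90.8% and 98.9% of these sums. Of the 12 other B cell and B cell receptor genes tested in CD4+ cells, Cd79a rose and 6 fell (H2-Aa, H2-Ab1, H2-Eb1, Cd74, Cd24a and Lyn), and of 13 tested in CD8+ cells 5 fell, including Syk, which fell by 2.01 (limma adjusted p = 0.0114). H2-Aa, a class II histocompatibility gene that antigen-presenting cells express, fell by 2.12 in CD4+ cells and fell by 2.02 in CD8+ cells (limma adjusted p = 0.0162 and 0.00493). Over all genes tested, 8.59% rose and 9.77% fell in KO CD4+ cells, and 12.6% rose and 12.5% fell in KO CD8+ cells. Rises made up 46.8% and 50.2% of these calls, and 18.1% and 23.4% once libraries were scaled to the same 75th percentile. With this scaling the median over all genes went from -0.05 to -0.16 and from -0.04 to -0.15.

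Lrp5 encodes a coreceptor that acts with Frizzled proteins in canonical Wnt signaling, and lies on chr19:3584825-3686585. Normalized counts were 1651, 1255, 1227 and 1752 in KO CD4+ libraries, 943, 1237, 1000 and 2093 in KO CD8+ libraries and 1096, 1333, 653 and 1888 in KO DP libraries. WT libraries held 261, 308, 249 and 214 (CD4+) and 314, 298, 147 and 260 (CD8+). Values of Lrp5 were alike in both WT subsets and higher in every KO library, with differences of 2.50 ± 0.16 in CD4+ and 2.35 in CD8+ cells on the log2 scale. Its closest relative Lrp6, also a Wnt coreceptor, rose by 0.54 ± 0.14 in CD8+ cells (limma adjusted p = 0.0222), a call that was lost with libraries at a common 75th percentile (limma adjusted p = 0.0666). In CD4+ cells the difference of Lrp6 was 0.21 ± 0.13 and did not pass (limma adjusted p = 0.26).

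Other genes of the Wnt pathway moved in both directions. Of 27 receptor and response genes tested in CD4+ cells, 3 rose and 2 fell, with a median log2 fold change of -0.11 against -0.05 over all genes tested (0.02 for both after quantile normalization). Of 25 tested in CD8+ cells, 6 rose and 4 fell, with a median of 0.14 against -0.04. Lef1, which encodes a transcription factor of the pathway, rose by 0.80 in CD4+ and 1.16 in CD8+ cells (limma adjusted p = 0.00654 and 0.0057). Kremen1, a receptor for the inhibitors of the Dkk family, rose by 0.67 and 0.70 (limma adjusted p = 0.0039 and 0.00696). Dvl1, a transducer downstream of Frizzled, fell by 0.93 and 1.5 (limma adjusted p = 0.0105 and 0.000593), and Dkk3, of the Dickkopf family, fell by 3.11 in CD8+ cells (limma adjusted p = 0.0118). When libraries were scaled to a common 75th percentile, 2 genes rose and 3 fell in CD4+ cells and 2 rose and 5 fell in CD8+ cells.

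Igsf23 lies on chr7:19937305-19953654. Its counts were 402, 661, 355 and 567 in KO CD4+ libraries, 215, 164, 80.8 and 139 in KO CD8+ libraries and 203, 143, 257 and 212 in KO DP libraries. In WT cells they were 133, 61.5, 84.5 and 80.9 (CD4+) and 2.6, 6.7, 27.9 and 10.2 (CD8+). KO libraries were above the WT libraries of the same subset, and CD4+ libraries above the CD8+ libraries of the same genotype. KO minus WT was 2.46 in CD4+ cells and 3.87 ± 0.61 in CD8+ cells. Among 10 related genes of the CEACAM, nectin and cell adhesion families tested in each subset, 0 rose in CD4+ cells with limma or edgeR (0 also at an unadjusted limma p under 0.05) and Cadm3 rose in CD8+ cells (1.63, limma adjusted p = 0.0257). Cadm1 fell by 1.61 and 1.94 (limma adjusted p = 0.047 and 0.00805) and Ceacam16 fell by 2.32 in CD8+ cells (limma adjusted p = 0.000934).

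**Figure D1:**
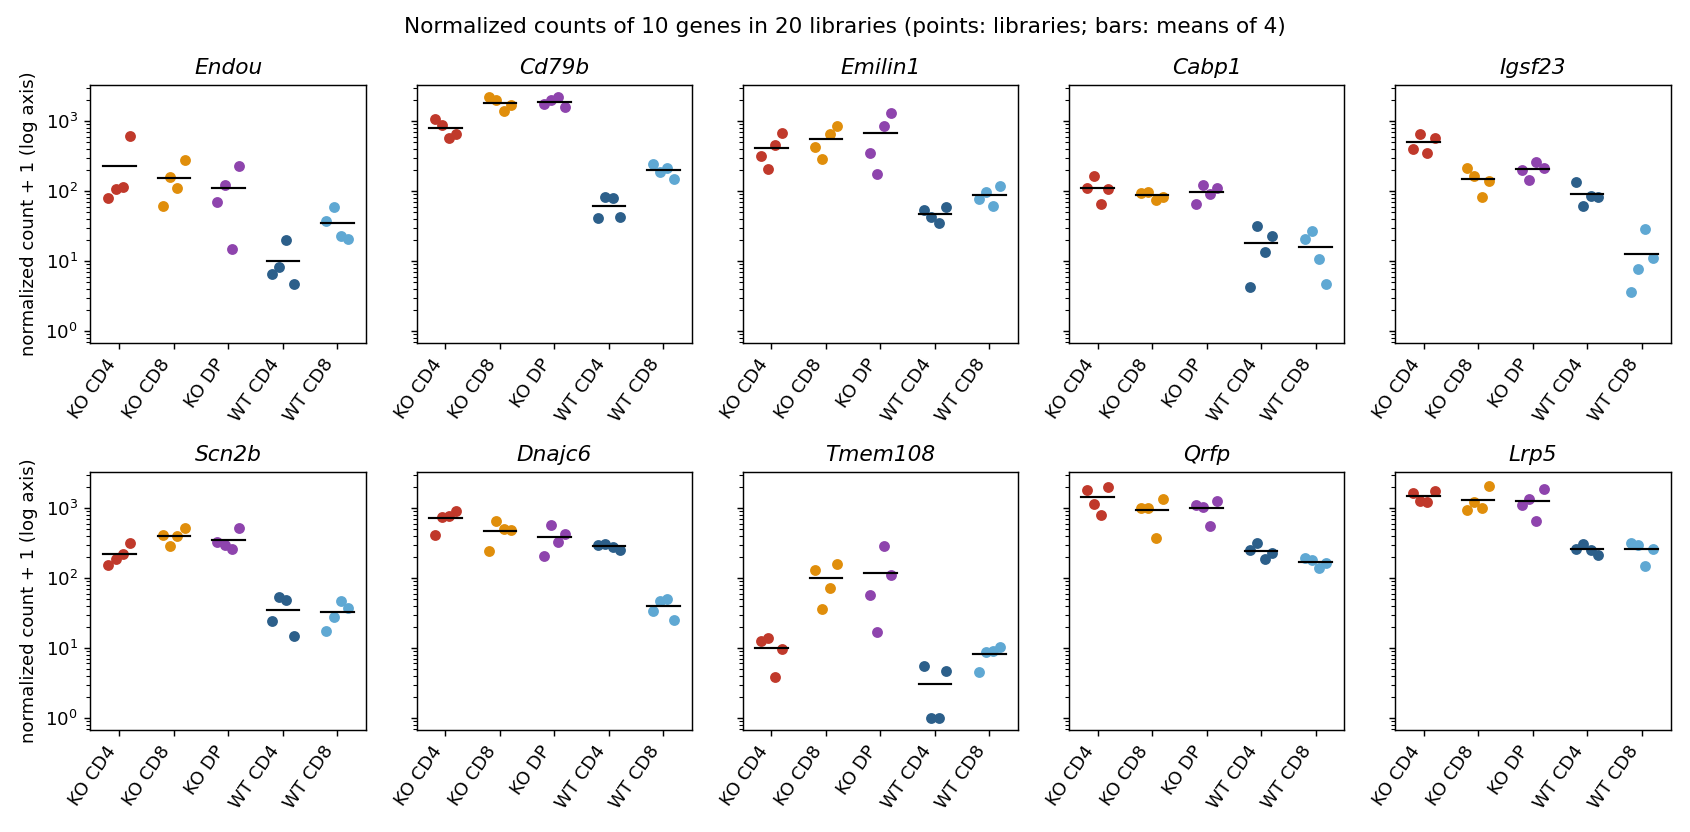
Normalized counts plus 1 on a log axis for each of the 10 genes in the 5 groups; each point is a library and each bar the mean of 4. In Cd79b, Emilin1, Cabp1, Scn2b, Qrfp and Lrp5 every KO library lies above every WT library, whereas Tmem108 is high only in KO CD8 and KO DP libraries.

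Of the genes known from neurons, Scn2b encodes a β subunit that modifies the gating of voltage-gated sodium channels (chr9:45117876-45130070). Counts were 154, 185, 219 and 311 in KO CD4+ libraries, 414, 289, 397 and 514 in KO CD8+ libraries and 323, 292, 259 and 525 in KO DP libraries. WT CD4+ libraries held 23.4, 52.3, 47.6 and 13.8 and WT CD8+ libraries 16.6, 26.9, 45.8 and 36.2, all below the KO libraries. KO minus WT was 2.76 in CD4+ and 3.71 ± 0.33 in CD8+ cells. The other sodium channel genes were low, since 3 of the 11 in the table could be tested. Of these 3, 0 rose in either subset with limma or edgeR, and 0 at an unadjusted limma p under 0.05. Scn4b fell by 2.82 ± 0.51 in CD8+ cells (limma adjusted p = 0.0057), from 57.6 to 114 normalized counts in WT to 6.18 to 29.4 in KO libraries.

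Cabp1 encodes a calcium sensor related to calmodulin that acts on calcium channels (chr5:115168691-115194381). It read 111, 162, 64.0 and 107 in KO CD4+ libraries, 94.2, 95.7, 72.9 and 81.4 in KO CD8+ libraries and 63.7, 121, 90.6 and 110 in KO DP libraries. In WT cells the counts were 3.3, 31.2, 12.6 and 22.1 (CD4+) and 20.1, 25.9, 9.9 and 3.7 (CD8+). The KO level was about the same in all subsets, with means of 111 ± 40.1, 86.1 ± 10.9 and 96.3 ± 25.1 (SD, n = 4). KO minus WT was 2.88 in CD4+ and 2.73 in CD8+ cells. Among 9 other calcium sensor genes tested per subset, Kcnip3 fell by 2.55 and 2.78 (limma adjusted p = 0.0361 and 0.00512). In CD8+ cells Kcnip2 fell as well, and Ncald and Hpcal1 rose by 0.35 and 0.33 (limma adjusted p = 0.0399 and 0.0345). Both rises lost their call at a common 75th percentile (limma adjusted p = 0.115 and 0.165), and quantile normalization ended those of Kcnip2 and, in CD4+ cells, of Kcnip3 (limma adjusted p = 0.0998 and 0.0777).

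Dnajc6 encodes auxilin, the cochaperone that recruits Hsc70 to strip clathrin from vesicles (chr4:101496648-101642799). Counts were 417, 743, 770 and 909 in KO CD4+ libraries, 238, 645, 508 and 490 in KO CD8+ libraries and 208, 568, 326 and 428 in KO DP libraries. They were 293, 304, 273 and 253 in WT CD4+ but 33.1, 46.1, 49.4 and 24.1 in WT CD8+ cells. Dnajc6 was therefore already present in WT CD4+ cells, and KO minus WT was 1.28 ± 0.22 in CD4+ cells, the smallest of the tested genes of the choice, against 3.55 in CD8+ cells. Gak, the auxilin of most other tissues, rose by 0.31 and 0.25 (limma adjusted p = 0.0203 and 0.0257), calls that were lost at a common 75th percentile (limma adjusted p = 0.0881 and 0.208). Of the clathrin coat and uncoating genes, 4 of 18 rose and 1 fell in CD4+ cells, and 4 of 19 rose and 1 fell in CD8+ cells, with medians of 0.06 and 0.12. After scaling to a common 75th percentile 0 rose in CD4+ cells and 1 in CD8+ cells, and the CD4+ median was -0.05.

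Tmem108 encodes a transmembrane protein of neurons that takes part in synaptic function (chr9:103482936-103761900). It read 130, 35.0, 71.8 and 160 in KO CD8+ libraries and 56.1, 15.7, 288 and 111 in KO DP libraries. KO CD4+ libraries held 11.5, 12.8, 2.9 and 8.8, WT CD8+ libraries 3.5, 7.7, 8.1 and 9.3, and WT CD4+ libraries 4.5, 0, 0 and 3.7. The gene was high in KO CD8+ and KO DP cells, while KO CD4+ and WT CD4+ libraries overlapped. Its mean over the CD4+ libraries was under 10, the minimum for the fit, so it was not tested in KO CD4+ against WT CD4+ cells. In CD8+ cells KO minus WT was 3.47 ± 0.54. Of 17 other neuronal genes tested in CD4+ cells 1 rose and 1 fell, and of 18 in CD8+ cells 1 rose and 4 fell. Camk2b, a calmodulin-dependent kinase subunit, rose in both (0.97 and 0.67, limma adjusted p = 0.00638 and 0.0434), and Map2, of neuronal microtubules, fell by 3.28 in CD8+ cells (limma adjusted p = 0.0114). At a common 75th percentile Camk2b did not pass in CD8+ cells (limma adjusted p = 0.0929), so that 0 neuronal genes rose there, and 3 fell in CD4+ cells. With quantile normalization 3 rose in CD4+ cells.

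Of the genes for secreted or matrix proteins, Qrfp encodes a neuropeptide of the RFamide family that stimulates feeding (chr2:31806168-31810580). Counts were 1826, 1156, 804 and 1973 in KO CD4+ libraries, 996, 995, 373 and 1365 in KO CD8+ libraries and 1089, 1030, 551 and 1271 in KO DP libraries. WT libraries held 253, 312, 188 and 224 (CD4+) and 193, 182, 136 and 161 (CD8+). Replicate 3 was the lowest KO library in each subset and still above every WT library. KO minus WT was 2.49 in CD4+ and 2.33 in CD8+ cells. Qrfp overlaps Abl1 on the other strand. Reads had been counted with the strand taken into account, and Abl1, a tyrosine kinase gene, rose by 0.37 and 0.52 (limma adjusted p = 0.0374 and 0.0113). Of the other neuropeptide genes, 0 of 5 tested in CD4+ cells and 0 of 4 in CD8+ cells rose with limma or edgeR, 0 also at an unadjusted limma p under 0.05, and Gcg fell by 3.18 in CD4+ cells (limma adjusted p = 0.00544).

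Emilin1 encodes a glycoprotein at the surface of elastic fibers (chr5:30913387-30921279). Counts were 315, 208, 464 and 689 in KO CD4+ libraries, 434, 289, 661 and 868 in KO CD8+ libraries and 354, 174, 855 and 1329 in KO DP libraries. In WT cells they were 52.4, 42.2, 34.0 and 58.8 (CD4+) and 76.8, 95, 61.1 and 116 (CD8+). KO libraries were spread over a wide range, with replicate 2 lowest and replicate 4 highest in each subset, yet none overlapped the WT libraries. KO minus WT was 3.03 in CD4+ and 2.60 in CD8+ cells. Among other EMILIN, multimerin and elastic fiber genes, 19 were in the table but 4 and 5 could be tested. In CD4+ cells 0 of 4 passed with limma or edgeR (1 at an unadjusted limma p under 0.05), and in CD8+ cells Loxl2, a lysyl oxidase homolog, had a difference of 3.41 ± 1.02 (limma adjusted p = 0.0374), which did not pass with edgeR.

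Endou encodes a poly(U)-specific endoribonuclease first described in placenta (chr15:97711015-97731405). It read 79.3, 106, 114 and 607 in KO CD4+ libraries, 60.0, 157, 111 and 281 in KO CD8+ libraries and 70.1, 122, 13.7 and 232 in KO DP libraries. WT CD4+ libraries held 5.6, 7.3, 19.4 and 3.7 and WT CD8+ libraries 36.6, 57.6, 21.6 and 19.5. Replicate 4 was the highest KO library in each subset, and DP replicate 3, at 13.7, lay below the WT CD8+ libraries. KO minus WT was 4.20 ± 0.68 in CD4+ and 2.06 ± 0.51 in CD8+ cells. Every KO library lay above every WT library for 9 of the 10 genes in CD4+ cells and for 10 in CD8+ cells, a count that the choice of the genes fixed and from which nothing can be read. In the whole table this was so for 12.3% of genes in CD4+ and 15.2% in CD8+ cells.

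**Figure D2:**
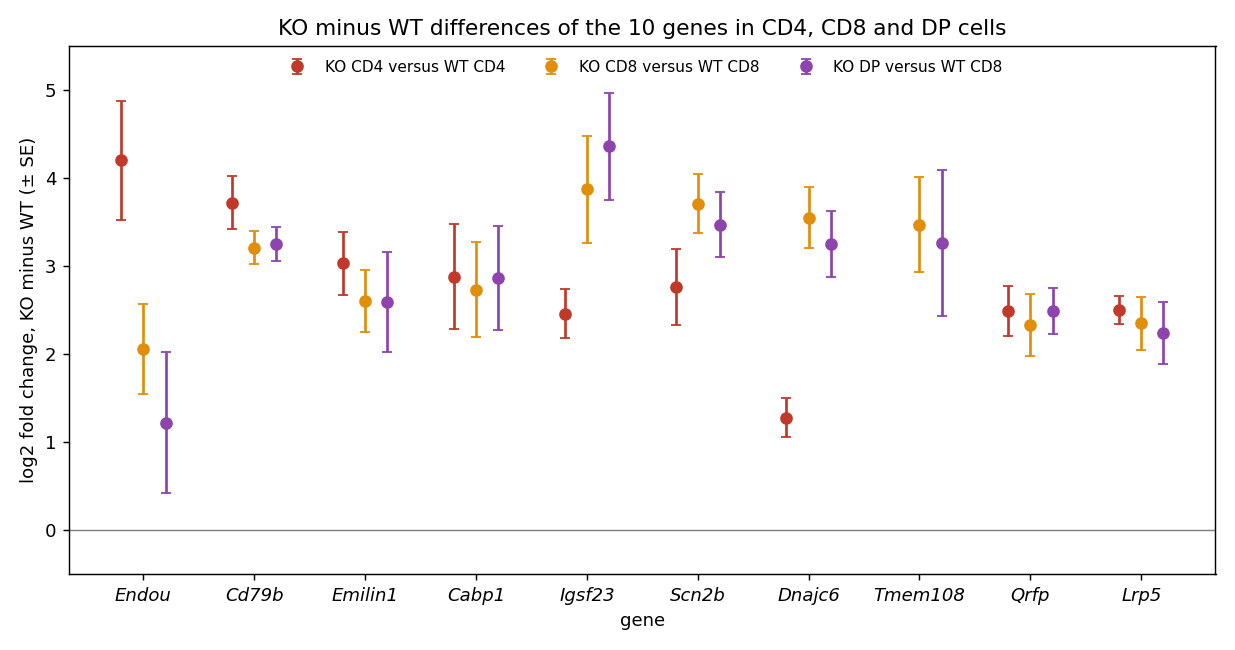
Log2 fold change of KO minus WT cells with its SE for the 10 genes in CD4, CD8 and DP cells, the last against WT CD8 cells. Endou was highest in CD4 cells (4.20) and Dnajc6 lowest (1.28); Tmem108 was not tested in CD4 cells.

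Lists of genes from other lineages were examined beside the 10 genes. Of the germline genes, 0 of 6 tested in CD4+ cells and 0 of 7 in CD8+ cells passed the threshold with limma or edgeR, and 3 and 0 had an unadjusted limma p under 0.05. Of the epithelial genes, 0 of 5 passed in CD4+ cells with limma or edgeR (1 unadjusted), and of 6 in CD8+ cells Epcam fell by 1.34 (limma adjusted p = 0.0393). With edgeR the calls of Cd24a (CD4+ and CD8+ cells), Cadm1 and Kcnip3 (CD4+ cells) and Epcam (CD8+ cells) did not pass (edgeR adjusted p = 0.0709, 0.0514, 0.0507, 0.0577 and 0.0654). The 15 T cell identity genes had median log2 fold changes of 0.06 in CD4+ and 0.10 in CD8+ cells, which turned to -0.05 and -0.06 after quantile normalization and to -0.06 and -0.01 after scaling to a common 75th percentile. Of these Cd6 rose by 0.54 in CD4+ and 1.05 in CD8+ cells (limma adjusted p = 0.0234 and 0.0024), Cd247 rose and Cd3e fell by 0.39 in CD8+ cells (limma adjusted p = 0.00722 and 0.0133). With quantile normalization the rise of Cd6 in CD4+ cells did not pass (limma adjusted p = 0.0544), and 2 of the 15 genes fell there. Quantile normalization also ended the calls of Cadm1 in CD4+ cells and Epcam in CD8+ cells (limma adjusted p = 0.0723 and 0.0713).

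The KO DP libraries were not used to choose the genes, but the WT CD8+ libraries they are set against were, and DP libraries moved with the KO CD8+ libraries of the same replicate number. The differences between DP and WT CD8+ cells are therefore given as a description, without a test. The libraries of 9 of the 10 genes did not overlap, and the log2 fold changes of these 9 ran from 2.24 to 4.36. Over all genes, 14% had every DP library above every WT CD8+ library and 7.03% were higher past the threshold, and nothing is read from this about the chosen genes. Igsf23 differed by 4.36 ± 0.61, Scn2b by 3.47 ± 0.37, Dnajc6 by 3.25 ± 0.37, Cd79b by 3.25 ± 0.19 and Tmem108 by 3.26. Cabp1 followed at 2.86, Emilin1 at 2.59, Qrfp at 2.49 and Lrp5 at 2.24. Endou, whose libraries overlapped, had a difference of 1.22 with a 95% interval of -0.58 to 3.01, and of 2.00 without DP replicate 3.

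DP and single-positive KO cells were then compared with each other. The single-positive KO libraries had been used to choose the genes, and the DP libraries had not. DP and KO CD8+ cells did not differ past the threshold in any of the 10 genes with limma, edgeR or DESeq2, and 0 of the 10 had an unadjusted limma p under 0.05. Of all genes, 0.00823% passed, which is 1 gene, Cd4 itself. The intervals set how much of a difference could have been missed. For Cd79b the difference was 0.04 with a 95% interval of -0.36 to 0.43, and for Scn2b -0.23 with an interval of -0.85 to 0.39. For Tmem108 the interval ran from -2.06 to 1.64 and for Endou from -2.64 to 0.96, so that differences of several fold were not excluded at this spread.

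Against KO CD4+ cells, DP cells held more Cd79b, by 1.27 ± 0.21 (limma adjusted p = 0.0176), where 1.95% of all genes passed in either direction. Without KO CD4+ replicate 3 or 4, or without DP replicate 2, this call was lost (limma adjusted p = 0.0564, 0.0648 and 0.0569), with differences of 1.13 to 1.24, and likewise without the mean-variance trend (limma adjusted p = 0.0504). Igsf23 was 1.27 lower in DP cells without passing (limma adjusted p = 0.0532), and Dnajc6 0.93 lower (limma adjusted p = 0.236). Equal replicate numbers paired the KO libraries, and with the number as a block both passed (limma adjusted p = 0.0471 and 0.0324), so that 3 of the 10 genes were called. With this block 860 of all 12175 genes tested passed, against 237 without it. Tmem108 did not overlap between these groups, but its difference of 3.05 had a 95% interval of 1.08 to 5.03 and did not pass over all genes (limma adjusted p = 0.129).

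The difference between CD4+ and CD8+ cells was then examined within each genotype. In WT cells, 6 of the 9 genes tested differed between the subsets, and 5 had no overlap, where 44.5% of all genes differed and 41.8% had no overlap. Igsf23 was 3.17 ± 0.54 and Dnajc6 2.89 ± 0.23 higher in WT CD4+ cells (limma adjusted p = 0.000354 and 4.39e-07), and Qrfp 0.53 higher (limma adjusted p = 0.0274). Endou was -1.90, Cd79b -1.74 and Emilin1 -0.87 on the same scale, which is lower in CD4+ than in CD8+ cells (limma adjusted p = 0.0131, 0.000158 and 0.0193). The call for Endou was lost without WT CD8+ replicate 3 (limma adjusted p = 0.0546), that for Emilin1 without WT CD4+ replicate 5 or WT CD8+ replicate 3 or 6 (limma adjusted p up to 0.0709), and that for Qrfp without WT CD4+ replicate 2 or 3 or WT CD8+ replicate 5 or 6 (limma adjusted p up to 0.0876). In a joint fit of all 20 libraries these 3 genes did not pass (limma adjusted p = 0.119, 0.314 and 0.393). In KO cells 3 of the 10 genes differed between the subsets and the same 3 did not overlap, where 4.22% of all genes differed and 10.1% did not overlap. All CD4+ and CD8+ libraries of both genotypes had been used to choose the genes, by rises in either subset. The choice may thus have favored differences between subsets, and nothing is read from these counts about the chosen genes.

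The direction between subsets was kept in several genes. Cd79b was lower in KO CD4+ than KO CD8+ cells by 1.23 ± 0.22 (log2 fold change -1.23, limma adjusted p = 0.0137) and Igsf23 higher by 1.76 ± 0.33 (limma adjusted p = 0.0176), as in WT cells. Tmem108 differed by -3.26 ± 0.63 (limma adjusted p = 0.0206). This call was lost without KO CD4+ replicate 3 or 4 or KO CD8+ replicate 1 or 4 (limma adjusted p = 0.0510 to 0.0631). Its mean was 8.97 in KO CD4+ and 99.1 in KO CD8+ libraries, so it reached the minimum of 10 through the KO CD8+ libraries. Without KO CD4+ replicate 4 the adjusted p of Igsf23 was 0.0587 with limma. With the replicate number as a block 7 of the 10 genes were called, since Scn2b (-0.91), Emilin1 (-0.44), Dnajc6 (0.63) and Qrfp (0.68) passed as well (limma adjusted p = 0.00694, 0.0351, 0.0141 and 0.00883). Of all 12189 genes tested, 2305 passed with the block, against 514 without it. For Endou the difference was 0.24 in KO cells, with a 95% interval of -1.24 to 1.73, and -1.90 in WT cells. For Scn2b it was 0.03 in WT cells, with an interval of -0.97 to 1.04. Whether KO and WT differ in these subset differences was not tested, because the genes were chosen on KO against WT values. Leaving out KO CD4+ replicate 1, the library with more Cd8a, changed none of the 3 calls.

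**Figure D3:**
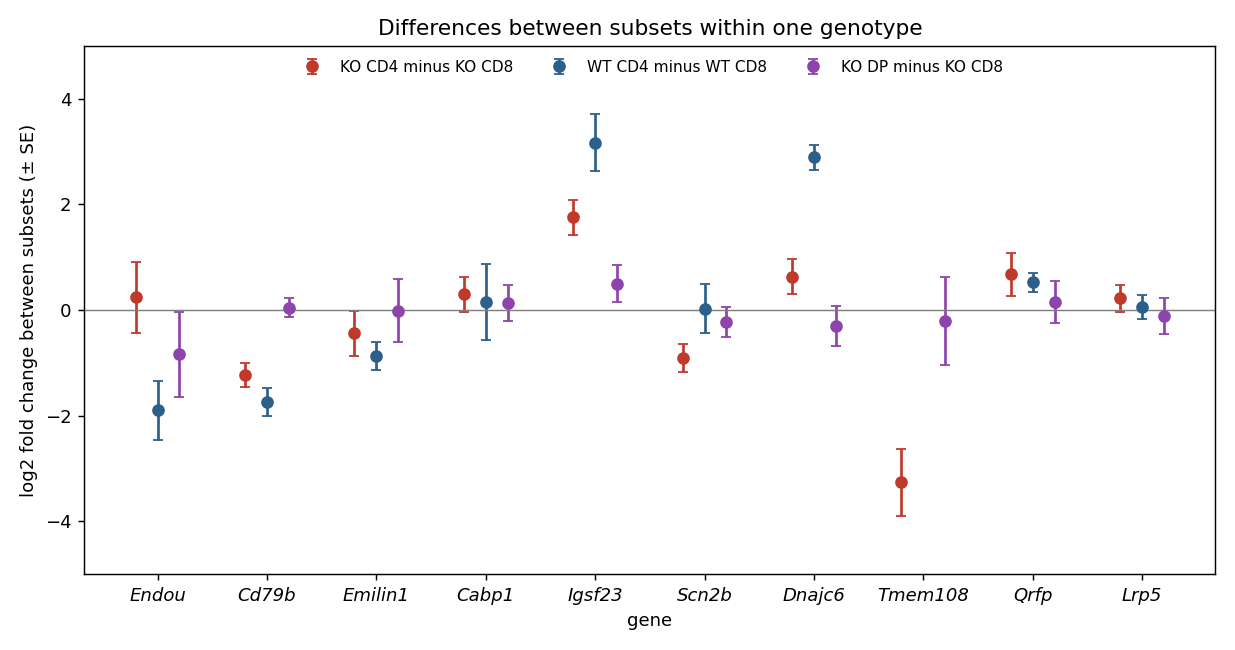
Log2 fold change with its SE for CD4 minus CD8 cells in KO and in WT, and for DP minus CD8 cells in KO. Igsf23 and Dnajc6 lie above 0 and Cd79b and Emilin1 below 0 in both genotypes, and the DP minus CD8 differences run from -0.84 to 0.50; Tmem108 was not tested in WT.

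Levels of different genes were compared per kilobase of exon. In KO CD4+ cells Cd79b (646 ± 182 normalized counts per kb, SD, n = 4) and Qrfp (492 ± 189) were the highest and did not differ beyond their spread, followed by Lrp5 (284 ± 52.0) and Igsf23 (234 ± 67.0), which also overlapped. In KO CD8+ cells Cd79b (1500 ± 293) stood above Qrfp (319 ± 141), Lrp5 (255 ± 103) and Emilin1 (162 ± 73.4), and these last 3 overlapped. Tmem108 was the lowest in each of the 5 groups. Against the genes with reads in their group, Cd79b lay at the 84.7th percentile in KO CD8+ and the 48.6th in WT CD8+ cells per kilobase. Cd3e, of the T cell receptor complex, had a mean of 14800 per kilobase in KO CD8+ cells.

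The order of the KO libraries was then compared across subsets by replicate number. In 6 of the 10 genes the same number was highest in KO CD4+, CD8+ and DP cells, as it was for 29.5% of all genes. Number 4 was the one in Endou, Emilin1, Scn2b, Qrfp and Lrp5, which was so for 5.74% of all genes, and number 2 in Cabp1. The same number was lowest in all 3 subsets in 3 genes (number 2 in Emilin1, number 1 in Dnajc6 and number 3 in Qrfp), against 31.2% of all genes. Of the marker lists, the sums of B cell and of NK cell markers were also highest in number 4 in each KO subset. B cell marker sums in number 4 were 1500, 552 and 705 in CD4+, CD8+ and DP cells, and NK cell marker sums (4 of 5 markers in the table, Ncr1 at 0 in every KO CD4+ library) 1770, 4730 and 3790. Over the other KO libraries the NK cell sums ran from 507 to 1030, 2070 to 3520 and 2300 to 3340. In WT libraries they ran from 685 to 1520 (CD4+) and 4200 to 5340 (CD8+). Eomes made up 52.5% of the NK cell sum in KO CD8+, 82.8% in WT CD4+ and 87.2% in WT CD8+ cells. Klrb1c made up 61.3% of it in KO CD4+ and 46.9% in KO DP cells. Neutrophil marker sums (7 of 8 markers) were highest in number 3, at 3360, 2060 and 6470, and lowest in number 2, and ran from 1480 to 3420 in WT libraries. Erythroid marker sums (3 of 8 markers) ran from 9.26 to 1130 in KO and 543 to 3340 in WT libraries, and pancreatic acinar marker sums (8 of 8) from 958 to 9060 and 774 to 2700, with number 3 the highest KO library of each subset in both lists. Stromal and endothelial marker sums (8 of 8 markers) ran from 5820 to 8630 in KO and 3780 to 5150 in WT CD4+ cells, from 2910 to 4950 and 2400 to 2630 in CD8+ cells and from 2650 to 5770 in KO DP cells, with no overlap between KO and WT libraries of the same subset. Pecam1, which encodes an adhesion molecule of endothelial cells and leukocytes, made up 96.6% to 99.0% of these sums. The part of these cells in the values of the 10 genes was not tested.

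**Figure D4:**
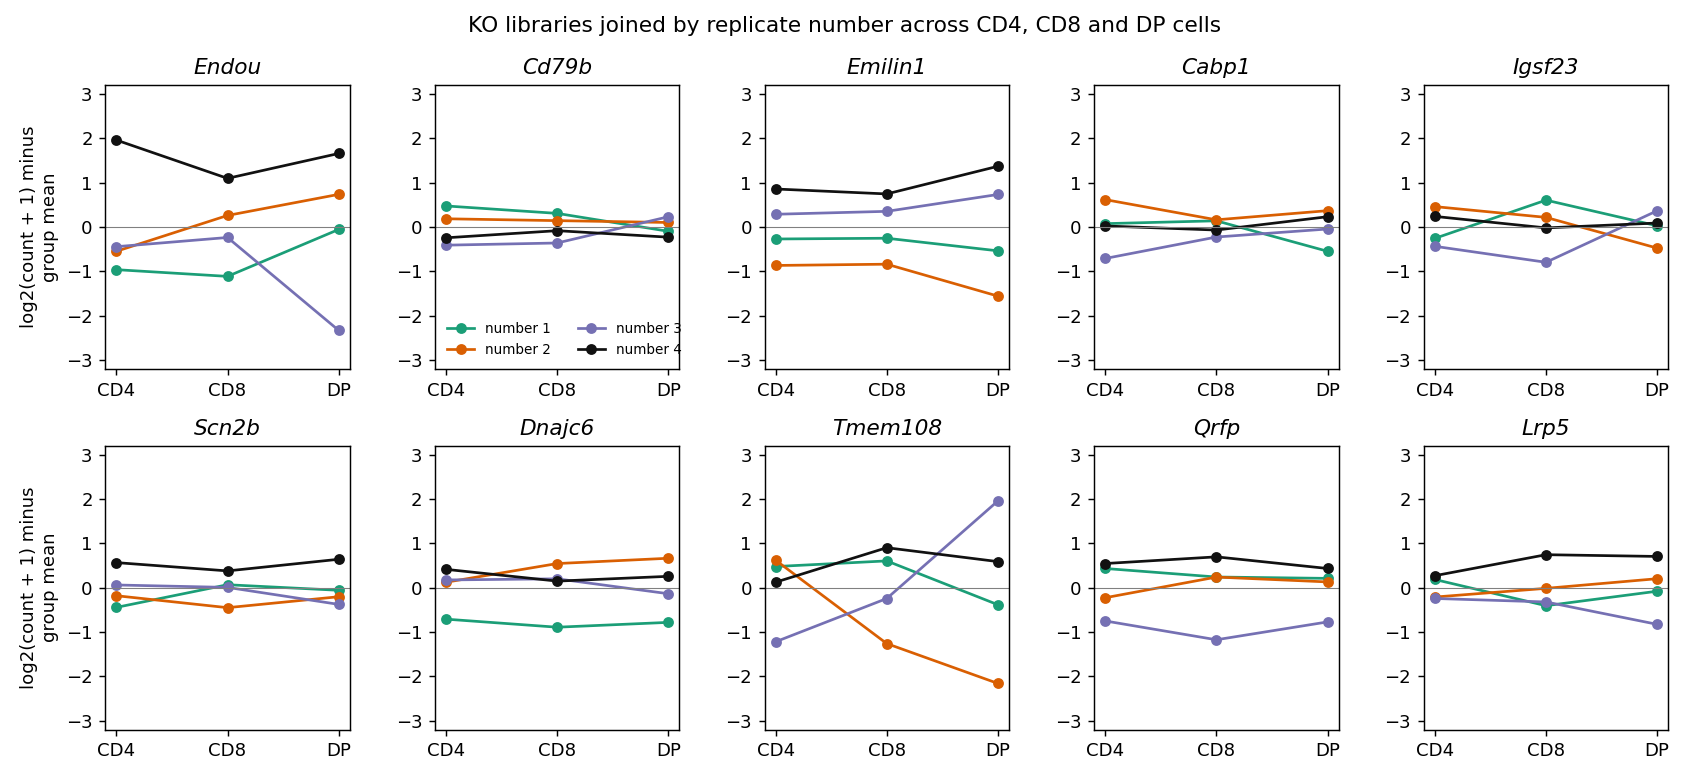
Deviation of log2(normalized count + 1) from the group mean for the 4 KO libraries of CD4, CD8 and DP cells, joined by replicate number, in each of the 10 genes. Number 4 lies on top in all 3 subsets for Endou, Emilin1, Scn2b, Qrfp and Lrp5, whereas the order changes between subsets for Igsf23 and Tmem108.

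Within groups the 10 genes did not move as a unit. After the group means were removed, the correlation of log2 values between pairs of genes over the 20 libraries had a median r of 0.02 over 45 pairs and ran from -0.47 to 0.74. Of these, 4 pairs exceeded 0.5, namely Endou with Lrp5 (0.74), Qrfp with Lrp5 (0.72), Emilin1 with Tmem108 (0.58) and Cd79b with Cabp1 (0.55). The pairs share libraries and so are not independent.

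Over the 20 libraries without such centering, the 3 genes most like each of the 10 by Pearson's r of log2 values had r between 0.86 and 0.97 (27 different genes out of 10709 compared). These values describe a pattern over 5 groups and carry the KO against WT difference for which the 10 genes were chosen. Qrfp was most like Pgm2 (0.97), Klhl5 (0.969) and Lrp5 (0.952), and Lrp5 most like Qrfp, Eef2 (0.946) and H6pd (0.939). Cd79b was most like Fuca2 and G0s2 (both 0.961), and G0s2, an inhibitor of the lipase that breaks down stored triglyceride, had mean counts of 142, 303 and 393 in KO CD4+, CD8+ and DP cells and 18.5 and 50.1 in WT CD4+ and CD8+ cells. Idh2, the mitochondrial isocitrate dehydrogenase, was among the 3 for both Dnajc6 (0.948) and Igsf23 (0.918), and Igsf23 was itself among those of Dnajc6 (0.893). Scn2b was most like Fam109b (0.953), Igsf23 most like Tspan3 (0.94), Tmem108 most like 1700097N02Rik (0.912), Emilin1 most like H6pd (0.91), Endou most like Slc35e3 (0.90) and Cabp1 most like Rbks (0.897). With Spearman's rho, 10 of the 30 named genes were again among the first 3 and 17 among the first 10.

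Genes beside the 10 were examined to see how far the rise extended along the chromosome. The 10 genes lie on 8 chromosomes, and positions are from RefSeq for GRCm38.p6. Of the 22 nearest or overlapping genes in the table, 16 could be tested in each subset, and their median log2 fold change was 0.08 in CD4+ and 0.05 in CD8+ cells. In CD4+ cells 2 rose and none fell, and in CD8+ cells 4 rose and 1 fell. Beside Scn2b, Amica1, which encodes a junctional adhesion molecule of leukocytes and lies 9.3 kb away, rose by 1.5 ± 0.28 and 1.05 ± 0.10 (limma adjusted p = 0.00853 and 0.000519), while Scn4b, 8.6 kb away on the other side, fell in CD8+ cells as given above. The remaining rises of nearest genes were those of Abl1 and, in CD8+ cells, of Rpap3 beside Endou (0.33) and Leprot beside Dnajc6 (0.24). Within 100 kb, 6 of 40 genes rose and 1 fell in CD4+ cells, where 8.59% and 9.77% of all genes tested did, and 12 of 42 rose and 5 fell in CD8+ cells, beside 12.6% and 12.5%. With libraries at a common 75th percentile, an alternative added after the data were seen, 5 rose and 3 fell in CD4+ and 5 rose and 6 fell in CD8+ cells, and the medians turned from 0.07 and 0.05 to -0.05 in both. Among nearest genes this scaling left the rise of Amica1 in both subsets and that of Abl1 in CD8+ cells, and ended the calls of Abl1 in CD4+ cells (also lost with quantile normalization) and of Rpap3 and Leprot. The largest rises within 100 kb were those of 5830418P13Rik, 21.7 kb from Tmem108, by 2.22 ± 0.48 and 1.94 ± 0.44 (limma adjusted p = 0.015 and 0.013). This gene was also among the 3 genes most like Cabp1. Ceacam16, 65.9 kb from Igsf23, fell in CD8+ cells as given above.

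**Figure D5:**
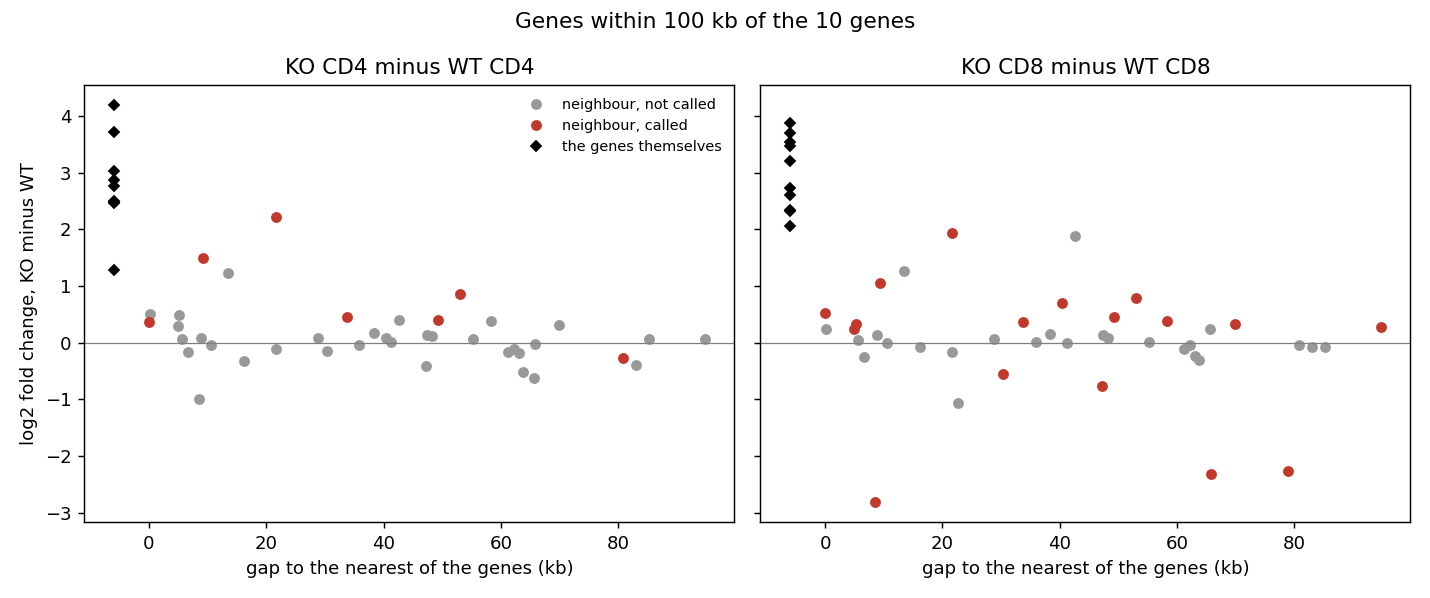
Log2 fold change of KO minus WT cells for genes within 100 kb of the 10 genes, by the gap in kb, in CD4 (left) and CD8 cells (right); red points passed the threshold and black diamonds, set left of 0, are the 10 genes themselves where tested. The tested neighbours have medians of 0.07 in CD4 and 0.05 in CD8 cells.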

How the data were processed

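RNA was sequenced from poly(A)-selected, strand-specific NEBNext Ultra II libraries. The authors aligned reads to the mouse genome (mm10, GRCm38) with STAR (2.7.2b in the submitters' processing notes), counted reads on UCSC genes with summarizeOverlaps in Union mode with strand, and divided them by DESeq2 size factors. The deposited values are thus normalized counts, a signal per gene and library. Dividing by the steps of the low values gave whole reads for 100% of values (relative tolerance 1e-06), between 37547651 and 46966318 per library.

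Values were analysed as log2(normalized count + 1) with limma 3.58.1 in R 4.3.3, with a mean-variance trend, for genes with a mean of at least 10 over the 8 libraries compared, with 2-sided tests and Benjamini-Hochberg adjustment over all genes tested at 0.05. Fits used the groups compared. On simulated data with 196 of 12106 genes changed by 1 on the log2 scale between KO DP and KO CD8+ libraries, limma recovered 44.9%, and 2.22% of its calls were false. With 197 of 12345 genes changed between KO CD4+ and WT CD4+ libraries it recovered 65.5%, and 7.86% were false. The simulated counts were drawn independently for each library, with a spread set by the mean level alone. They lack the pairing of KO libraries by replicate number, so the rates may differ in the real libraries. Positions, promoters and neighbors came from RefSeq for GRCm38.p6 with Python 3.11.15. The labels do not say that libraries of 1 group came from separate animals. The study describes the columns of its expression heatmap as biological replicates. The p-values measure the spread between these libraries.

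The 10 genes and the lists were chosen with earlier results of these data known. Named were these 10 genes, their closest relatives, their nearest neighbors, the 3 genes most like each, and called members of the lists. Relatives, markers and list genes with a mean under 50 (such as Cd79a, Scn4b, Kcnip3, Loxl2 and Cadm3) were also named after their values were seen. Equal replicate numbers paired the libraries within KO cells, where log2 deviations from the group means correlated at 0.412 to 0.498 (CD4+ and CD8+), 0.271 to 0.457 (CD4+ and DP) and 0.338 to 0.538 (CD8+ and DP) for equal numbers and at -0.395 to 0.116 for others. In WT cells these ranges were 0.12 to 0.196 and -0.138 to 0.0111. The pairing was read from the data, since the labels give a number without saying what it marks.

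The alternatives tried were quantile normalization, a pseudocount of 10, a minimum mean of 50 or none at all, a common 75th percentile, no mean-variance trend, a joint fit of all 20 libraries, a replicate block, edgeR 4.0.16 and DESeq2 1.42.0 on the whole reads, leaving out each library, Spearman's rho and neighbors within 100 kb. Other scalings of the neighbors were added after the data were seen. No columns were left out.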

Additional observations from a re-analysis of the deposited data

Results flagged for a closer look

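Endou in KO CD4+ replicate 4 stood apart from the other libraries of its group. It had 607 normalized counts, against 79.3 to 114 in the other 3 libraries, a gap of 0.935 of the group's range (above Dixon's critical value for 4 values). Of 50 groups checked (10 genes in 5 groups) this was 1, where chance gives about 1 in 20, or 2.5. Without this library the difference between KO and WT CD4+ cells was 3.55, against 4.20 with it.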

How the results depend on the processing

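Counts of genes past the threshold moved with the fit, and the cause was not tested. For KO against WT CD4+ cells the count of 2274 was 1403 without the mean-variance trend and 1304 in the joint fit. For KO against WT CD8+ cells 3118 became 2017 in the joint fit, and for KO DP against WT CD8+ cells 2044 became 3541 in the joint fit and 3302 with DESeq2. KO DP and KO CD8+ cells differed in 1 gene and in 3 with DESeq2. KO DP against KO CD4+ cells gave 237, and 124 without the trend, 1459 in the joint fit and 729 with DESeq2. KO CD4+ against KO CD8+ cells gave 514, and 299, 885 and 959 in the same order. WT CD4+ against WT CD8+ cells gave 5592, and 1610 in the joint fit. Leaving out 1 library at a time gave 628 to 2963, 1633 to 4092, 767 to 3980, 1 to 1, 84 to 279, 233 to 486 and 4985 to 5630 for these comparisons in order.

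With the replicate block KO DP against KO CD4+ cells gave 860 and KO CD4+ against KO CD8+ cells 2305. KO and WT libraries shared only the numbers 2 and 3, with correlations of at most 0.115, so these do not pair the libraries. With the block the counts were 26 (CD4+), 89 (CD8+) and 517 (DP against WT CD8+), and in the last Endou turned to -0.15. In calls on the 10 genes the block changed no others within a genotype than those given above.

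Of the differences that turned, none was past the threshold. In KO DP against KO CD8+ cells Cd79b turned to -0.02 with the common 75th percentile, Emilin1 to 0.01 with quantile normalization and 0.26 with edgeR and DESeq2, and Tmem108 to 0.23 with both tools. In WT CD4+ against WT CD8+ cells Scn2b turned to -0.06 and Lrp5 to -0.01 with quantile normalization. When libraries were left out in turn, KO DP minus KO CD8+ ran from -0.08 to 0.14 for Cd79b, -0.47 to 0.51 for Emilin1, -0.86 to 0.51 for Tmem108, -0.23 to 0.42 for Qrfp and -0.34 to 0.17 for Lrp5. KO DP minus KO CD4+ ran from -0.02 to 0.95 for Emilin1 and -0.40 to 0.04 for Cabp1, KO CD4+ minus KO CD8+ from -0.41 to 0.61 for Endou, and WT CD4+ minus WT CD8+ from -0.34 to 0.73 for Cabp1, -0.23 to 0.39 for Scn2b and -0.18 to 0.18 for Lrp5. KO minus WT stayed positive for the 9 genes tested in CD4+ cells and the 10 in CD8+ cells under the alternatives run. The genes had been chosen for this difference in these libraries, so nothing is read from its sign. Counts of calls in the gene lists moved by over 1.5 times in 31 repeats and by less in 113. With 4 libraries a group, differences within the intervals given were not detectable, and genes under the minimum of 10 were not tested.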
